A study of Zea mays with 14 samples.

Results

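The GAPDH control probe sets are the 7 probe sets of the maize array whose identifiers begin with AFFX-Zm-gapdh or AFFX-Zm_Gapdh, out of 17734 rows in the deposited table. They were chosen by identifier alone and form a pair of series. One, here called the Zm-gapdh series, has 4 probe sets, AFFX-Zm-gapdh-3_at, AFFX-Zm-gapdh-5_at, AFFX-Zm-gapdh-M_at and AFFX-Zm-gapdh-M_s_at. The other, the Zm_Gapdh series, has 3, AFFX-Zm_Gapdh_3_s_at, AFFX-Zm_Gapdh_M_f_at and AFFX-Zm_Gapdh_5_f_at. Below, their names are given without the leading AFFX-Zm. In these identifiers 3, M and 5 stand for the 3′ end, the middle and the 5′ end of the transcript. The ending s marks probes shared by several transcripts and f marks probes shared by a gene family. Probe sequences and the transcripts that each series targets were not given in the sources used here.

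Glyceraldehyde-3-phosphate dehydrogenase (GAPDH) is the glycolytic enzyme that oxidises glyceraldehyde 3-phosphate and transfers the electrons to NAD. In maize the cytosolic enzyme is encoded by the gpc genes, of which gpc3 and gpc4 are known as genes induced by lack of oxygen, while gpc1 and gpc2 are expressed in air. Array makers place GAPDH probe sets along the transcript as controls because the mRNA is abundant in most tissues and because labelling starts at the 3′ end, so that a partly degraded or partly copied RNA gives less signal at the 5′ end.

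Embryonic axes of maize (Zea mays), the part of the embryo that gives rise to root and shoot, were profiled on 14 Affymetrix maize arrays from 11 biological samples. Axes came from dry seed or from seed germinated at 27 °C, and some received bovine insulin, a peptide hormone of animals. Total RNA was taken from 1 g of axes, and polysomal RNA, recovered with ribosomes through a sucrose cushion, from 2 g. The values were used as log2 intensities. The polysomal insulin group (n = 3) held polysomal RNA of axes dissected after 22 h of imbibition in darkness and kept for 2 h in Murashige and Skoog medium with insulin at 200 µU/mL. The polysomal group without insulin (n = 3) was treated alike, with 0 µU/mL. The insulin-treated total RNA group held 1 biological sample on 2 arrays, of axes imbibed for 22 h and kept for 2 h in medium with insulin at 200 µU/mL. The 24 h total RNA group held axes of seed germinated for 24 h, in samples M4 (2 arrays) and RB (1 array), and the labels do not say whether these axes were also kept in medium. The quiescent group held total RNA of axes of ungerminated seed (0 h), in sample 1 (2 arrays) and sample 2 (1 array). The labels call the samples of a group biological replicates but do not say whether they came from separate seed lots. A p-value here therefore covers no more than the variation among the samples at hand, which may hold no variation between lots.

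The median log2 intensity of a sample was 7.54 to 7.64 in germinated axes and 7.29 and 7.38 in quiescent axes. The median of the polyA spikes, RNAs added before labelling, was 7.47 and 7.56 in M4 and RB and 9.71 and 9.47 in quiescent samples, and 7.17 to 10.84 in the other groups. The median of the hybridization spikes was 3.97 in polysomal insulin sample 2 and 8.98 to 10.69 elsewhere. The part of the spikes' differences in the results was not tested. Background was set for each sample at the level below which 95% of 23 negative controls fell, and lay between 4.29 and 4.81 on the log2 scale. Repeat arrays of a biological sample correlated at r = 0.9956 for quiescent sample 1, 0.9976 for M4 and 0.9925 for insulin-treated total RNA. Sample RB stood apart from M4 (r = 0.9663 across probe sets), which was closest to insulin-treated total RNA (r = 0.9951). Of 10 probe sets paired with genes of embryos and dry seed (7 of 8 listed genes), 0 rose and 7 fell in 24 h axes, and their mean log2 intensity was 8.91 to 9.44 in the 24 h samples and 11.04 to 11.07 in the quiescent samples. Of 7 endosperm probe sets, 2 rose and 3 fell (2 under quantile normalization, which ended the call of an o2 probe set), with a mean of 6.47 to 6.82 in 24 h samples and 6.27 to 6.34 in quiescent samples. The pair that rose belongs to sh1, a sucrose synthase gene. Neither of 2 leaf probe sets was called (1 fell under quantile normalization, both under median centring), with a mean of 4.55 to 4.77 in 24 h samples and 4.98 to 5.36 in quiescent samples. The part of other tissue in the GAPDH differences was not tested.

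The middle probe sets of the Zm-gapdh series were far higher in every germinated sample than in quiescent axes, and none of the other 5 GAPDH probe sets was called higher. The probe set gapdh-M_s_at read 13.68, 14.07 and 13.94 in polysomal insulin samples 1 to 3 and 14, 13.55 and 13.94 in polysomal samples 1 to 3 without insulin. It read 13.88 in insulin-treated total RNA and 13.89 and 13.76 in the 24 h samples M4 and RB, against 8.73 and 8.68 in quiescent samples 1 and 2. All 9 germinated samples lay within 0.53 log2 units of each other, and none came near the quiescent pair. The probe set gapdh-M_at read 10.94, 11.29 and 10.89 in polysomal insulin samples and 11.46, 10.72 and 10.84 in polysomal samples without insulin. It read 10.71 in insulin-treated total RNA and 10.78 and 10.19 in M4 and RB, against 5.30 in each quiescent sample. The quiescent readings of both middle probe sets were above the background level, which was 4.81 in quiescent sample 1 and 4.58 in sample 2. Those of gapdh-M_at lay only a little above it and above the highest negative control, at 5.05 and 4.90. How far background signal limits the folds of gapdh-M_at was not tested.

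Tested across 17582 probe sets with limma, gapdh-M_s_at was 5.12 log2 units higher in 24 h total RNA (SE 0.20, 95% interval 4.67 to 5.57, adjusted p = 5.69e-07), which is 34.7-fold with an interval of 25.5 to 47.4. In polysomal RNA without insulin it was also 5.12 units above quiescent total RNA (SE 0.18, adjusted p = 2.3e-07). The difference of gapdh-M_at was 5.19 in 24 h total RNA (SE 0.28, 36.5-fold with an interval of 23.5 to 56.8, adjusted p = 2.39e-06) and 5.71 in polysomal RNA without insulin (SE 0.26, 52.4-fold with an interval of 35.0 to 78.4, adjusted p = 5.05e-07). These comparisons share the 2 quiescent samples and are not independent of each other. Polysomal RNA differs from quiescent total RNA both in stage and in RNA fraction, which cannot be told apart here. Each value is relative to the rest of the labelled RNA, and more mRNA per cell cannot be told apart from more cells of a type that expresses it.

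Called here means a Benjamini-Hochberg adjusted p under 0.05 over all 17582 probe sets. In 24 h against quiescent total RNA, 2 of 7 GAPDH probe sets were called higher and 0 lower, where 21.3% of all probe sets were called higher and 25.8% lower. In polysomal RNA without insulin against quiescent total RNA, 2 were called higher and 1 lower, beside 25.1% and 32.6% of all probe sets. With the 4 germinated groups weighted equally against quiescent axes, 2 were again called higher and 1 lower, beside 25.8% and 33.9%. In that comparison gapdh-M_s_at was 5.15 units higher (SE 0.16, adjusted p = 7.76e-08) and gapdh-M_at 5.51 (SE 0.23, adjusted p = 2.05e-07). So many probe sets differ between the stages that the counts say little about GAPDH. The sizes stand further out, since only 0.8% of all probe sets had a wider range over the 11 samples than gapdh-M_at (6.16 units) and 1.8% a wider one than gapdh-M_s_at (5.39 units), where the median range was 1.32.

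The middle pair did not move by exactly the same amount in all samples. The log2 ratio of gapdh-M_s_at to gapdh-M_at was 2.74, 2.79 and 3.05 in polysomal insulin samples and 2.54, 2.82 and 3.10 in polysomal samples without insulin. It was 3.17 in insulin-treated total RNA and 3.10 and 3.57 in M4 and RB, against 3.43 and 3.39 in quiescent axes. All 6 polysomal samples lay below M4, RB, the insulin-treated total RNA and the quiescent pair, although M4 and polysomal sample 3 without insulin nearly met. In the germinated samples gapdh-M_s_at lay 0.21 to 0.62 units below the brightest value of its sample, against 5.58 and 5.61 units in quiescent axes. Whether its signal was near saturation, which would make its folds too small, was not tested.

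The end probe sets of the Zm-gapdh series carried little or no signal. The 3′ probe set gapdh-3_at read 4.00, 4.30 and 3.92 in polysomal insulin samples, 4.07, 4.04 and 4.06 in polysomal samples without insulin, 4.64 in insulin-treated total RNA, 4.21 and 4.61 in M4 and RB, and 4.89 and 4.69 in quiescent axes. Only RB and the quiescent samples exceeded their background, the quiescent ones by 0.07 and 0.11 units. In polysomal RNA without insulin it was called lower than in quiescent total RNA (limma adjusted p = 0.00539), with means of 4.06 ± 0.02 (SD, n = 3) and 4.79 ± 0.14 (SD, n = 2). Background itself was 4.39, 4.41 and 4.53 in polysomal samples 1 to 3 without insulin, against 4.81 and 4.58 in quiescent samples 1 and 2. No fold is given, since the polysomal samples were all at background and the quiescent samples barely above theirs. Over all germinated groups gapdh-3_at was also called lower (limma adjusted p = 0.0191), with no fold given because 8 of the 9 germinated samples were at background. Quantile normalization ended both calls (adjusted p = 0.0536 and 0.206), while leaving out quiescent sample 1 (adjusted p = 0.151) or fitting all 14 arrays with the sample as a random block (adjusted p = 0.0701) ended the call over all germinated groups. It was not called in 24 h total RNA (limma adjusted p = 0.133).

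The 5′ probe set gapdh-5_at was below background in all 11 samples. It read 3.37 to 3.41 in polysomal insulin samples, 3.36 to 3.54 in polysomal samples without insulin, 3.71 in insulin-treated total RNA, 3.28 and 3.47 in M4 and RB, and 3.75 and 3.76 in quiescent axes. No fold is therefore given for it. With gapdh-3_at at or near background in all groups, neither end of the Zm-gapdh series gives a ratio of 3′ to 5′ signal, although its middle probe sets were bright in germinated axes.

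All 3 probe sets of the Zm_Gapdh series were bright in every sample and were not called in any comparison with quiescent axes. The 3′ probe set Gapdh_3_s_at read 13.12, 12.72 and 12.75 in polysomal insulin samples, 12.54, 13.11 and 12.79 in polysomal samples without insulin, 12.63 in insulin-treated total RNA, 12.72 and 12.50 in M4 and RB, and 13.21 and 13.09 in quiescent axes. Both 24 h samples were below both quiescent samples, while polysomal sample 2 without insulin and polysomal insulin sample 1 reached the quiescent range. It differed by −0.54 in 24 h total RNA (SE 0.22, 95% interval −1.03 to −0.04, adjusted p = 0.0735) and by −0.33 in polysomal RNA without insulin (SE 0.20, adjusted p = 0.184).

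The middle probe set Gapdh_M_f_at read 12.09, 12.19 and 12.18 in polysomal insulin samples, 11.97, 11.96 and 12.25 in polysomal samples without insulin, 12.29 in insulin-treated total RNA, 12.12 and 11.88 in M4 and RB, and 12.61 and 12.23 in quiescent axes. It differed by −0.42 in 24 h total RNA (SE 0.18, adjusted p = 0.0916) and by −0.36 in polysomal RNA without insulin (SE 0.17, adjusted p = 0.0961). The 5′ probe set Gapdh_5_f_at read 11.51, 11.89 and 11.79 in polysomal insulin samples, 11.54, 11.34 and 12.00 in polysomal samples without insulin, 11.98 in insulin-treated total RNA, 11.74 and 11.68 in M4 and RB, and 12.32 and 11.87 in quiescent axes. It differed by −0.38 in 24 h total RNA (SE 0.25, adjusted p = 0.225) and by −0.47 in polysomal RNA without insulin (SE 0.22, adjusted p = 0.101). The 24 h readings of all 3 Zm_Gapdh probe sets lay below the quiescent ones without overlap, although none of the 3 was called. With so few samples in each group, such separation can easily arise by chance. The share of all probe sets that separate in this way is not given here, so the separation says little about GAPDH itself.

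These small differences depend on the scaling. The median difference over all probe sets was −0.17 in 24 h against quiescent total RNA, and the Zm_Gapdh series lay below it at −0.54 to −0.38. With each array centred on its median, the median difference became −0.45, and all 3 probe sets of the Zm_Gapdh series were called lower, at −0.81 to −0.66. The end probe sets of the Zm-gapdh series then passed the test too, but on readings at or near background. With RB left out, 4 probe sets were called in place of 2, the additional ones being gapdh-3_at (adjusted p = 0.0471), at background in M4, and gapdh-5_at (adjusted p = 0.0447), at background in M4 and in quiescent axes, so that this second call compares background readings. The rises of gapdh-M_s_at and gapdh-M_at were called in all alternatives tried, with 24 h differences of 4.84 to 5.18 and 4.90 to 5.49.

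The list of glycolytic and fermentative genes offered a comparison with probe sets that the platform annotation pairs with the gpc genes, 7 in all. The annotation lists none of the GAPDH controls. The gpc4 probe set read 13.37, 13.52 and 13.40 in polysomal insulin samples, 13.53, 13.34 and 13.43 in polysomal samples without insulin, 13.37 in insulin-treated total RNA, 13.35 and 13.19 in M4 and RB, and 9.07 and 8.92 in quiescent axes. It was 4.27 units higher in 24 h total RNA (19.4-fold, SE 0.15, adjusted p = 4.48e-07). There are 3 gpc3 probe sets, of which the one with the largest difference averaged 13.41 in 24 h total RNA and 6.80 in quiescent axes, a difference of 6.61 (97.6-fold, SE 0.20, adjusted p = 3.93e-07). The other 2 differed by 5.36 (SE 0.69, limma adjusted p = 0.000238) and by 5.00 (SE 0.53, limma adjusted p = 7.51e-05), and each was above background in only 1 of the 2 quiescent samples.

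The gpc1 and gpc2 probe sets did not pass the test. The gpc2 probe set averaged 13.32 in 24 h total RNA and 13.40 in quiescent axes (difference −0.075, SE 0.16, adjusted p = 0.73). The gpc1 probe set with the ending s averaged 12.29 in 24 h total RNA and 12.78 in quiescent axes (difference −0.49, SE 0.20, adjusted p = 0.0717), and the other gpc1 probe set differed by 0.19 (SE 0.39, adjusted p = 0.714). With arrays centred on their medians, the gpc1 probe set with the ending s was called lower (−0.77, adjusted p = 0.0128), as the Zm_Gapdh series was, and the other gpc1 probe set turned to −0.09 (adjusted p = 0.856). Thus 4 of 7 gpc probe sets rose, with a median difference of 4.27 where the median over all probe sets was −0.17. Both gapdh-M_s_at and gapdh-M_at had differences within the range of the gpc3 and gpc4 probe sets, 4.27 to 6.61, and the Zm_Gapdh series had differences of −0.54 to −0.38, close to that of the gpc1 probe set with the ending s. That closeness is not particular to gpc1, since the control probe sets for ubiquitin differed by −0.44 to −0.35. Whether the Zm_Gapdh series differed from the gpc2 probe set was not tested. Which gpc transcripts the controls hybridise with was not tested.

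Of the other 11 glycolytic and fermentative probe sets, 7 rose, 1 fell and 3 were not called in 24 h total RNA, with a median difference of 1.06. They included a pdc1 probe set (pyruvate decarboxylase) at 7.85 (SE 0.24, adjusted p = 3.93e-07) and adh2 (alcohol dehydrogenase) at 4.26 (SE 0.78, adjusted p = 0.00175). A pair of eno1 (enolase) probe sets rose by 3.30 and 2.14, ald1 (aldolase) by 1.06, adh1 by 0.78 and the other pdc1 probe set by 1.17. The probe set that fell was pfk1, at −1.96 (SE 0.31, adjusted p = 0.00076), and eno2, phi1 and another eno1 probe set, at background in both groups, were not called. Only 12 of 21 listed genes could be paired with probe sets, so the list covers the pathway in part. The calls of these 11 and of gpc3 and gpc4 held under quantile normalization and median centring.

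Among the 20 other controls named for a maize gene, 4 were called higher and 2 lower in 24 h total RNA, beside 21.3% and 25.8% of all probe sets. All 4 that rose were actin controls spelled with Zm-, by 2.75 to 4.22 units, while the other 2 actin controls of that spelling were not called. Both that were called lower were actin controls spelled with Zm_, the middle one at −1.92 and the 5′ one at background in both groups, whose call quantile normalization ended (adjusted p = 0.269). Controls for EF1a, cyclophilin and ubiquitin, abundant transcripts used like GAPDH, were not called in 24 h against quiescent total RNA. With median centring the 3 ubiquitin controls were called lower, at −0.72 to −0.63, like the Zm_Gapdh series, and 2 of 3 cyclophilin controls changed sign without being called. In polysomal RNA without insulin against quiescent total RNA, 4 of the 20 were called higher and 5 lower, beside 25.1% and 32.6% of all probe sets. All 3 ubiquitin controls were among the lower ones, at −1.28 to −1.03. Over all germinated groups they were called lower too, at −0.87 to −0.76. EF1a and cyclophilin controls were called in neither comparison.

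Among germinated axes no GAPDH probe set passed the test for insulin or for polysomal against total RNA. With insulin in polysomal RNA, 0 of 7 were called, beside 0% of all probe sets, where 57 of 17582 had an unadjusted limma p under 0.05. The readings overlapped between the groups for every probe set. The end probe sets gapdh-3_at and gapdh-5_at were at background in both groups, and the insulin differences of the other 5 were 0.03 to 0.10 units. For gapdh-M_s_at the means were 13.90 ± 0.20 with insulin and 13.83 ± 0.25 without (SD, n = 3 each), with a 95% interval of −0.30 to 0.43 for the difference. For gapdh-M_at they were 11.04 ± 0.22 and 11.01 ± 0.40, with an interval of −0.49 to 0.55. A change of more than 2-fold (1 log2 unit) in either direction lay outside the interval of each of these 5. For gapdh-M_s_at the limit on a rise says little, since its mean was 13.83 without insulin and no value on any array exceeded 14.38. For the 2 at background no limit on a change is given.

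Insulin-treated total RNA was set against 24 h total RNA, where insulin and the time in medium cannot be told apart. Again 0 of 7 were called, beside 0% of all probe sets, and limma gave an unadjusted p under 0.05 to 427. The differences of the 5 probe sets above background ran from 0.01 to 0.29, with wider intervals because the insulin group has 1 biological sample, such as −0.56 to 1.01 for gapdh-M_at. The difference between the insulin effects in polysomal and in total RNA was called for 0 of 7, beside 0% of all, with 303 of all probe sets at an unadjusted limma p under 0.05. The counts of 427 and 303 were also below the number expected at this threshold if no probe set differed.

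Polysomal against 24 h total RNA without insulin gave 0 of 7 calls, beside 1.08% of all probe sets, where 3448 probe sets had an unadjusted limma p under 0.05. The middle probe set gapdh-M_at averaged 11.01 ± 0.40 in polysomal RNA (SD, n = 3) and 10.49 ± 0.42 in 24 h total RNA (SD, n = 2), a difference of 0.52 with an interval of −0.06 to 1.10 (limma adjusted p = 0.303). For gapdh-M_s_at the difference was 0.00, with an interval of −0.40 to 0.41. Under insulin, polysomal against total RNA gave 0 of 7 calls, beside 0.00569% of all probe sets, and 1689 probe sets had an unadjusted limma p under 0.05. The Zm_Gapdh series differed by −0.08 to 0.20 without insulin and by −0.25 to 0.24 with insulin. These values set the share of GAPDH mRNA among polysomal mRNAs against its share in total RNA, and do not give the number of ribosomes per transcript. Without insulin, RNA fraction and time in medium cannot be told apart, since the labels give the time in medium only for the polysomal samples.

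The Zm_Gapdh series, with signal at both ends, allowed a ratio of 3′ to 5′ signal within each sample. The log2 ratio of Gapdh_3_s_at to Gapdh_5_f_at was 1.60, 0.83 and 0.96 in polysomal insulin samples 1 to 3, 1.00, 1.77 and 0.79 in polysomal samples 1 to 3 without insulin, 0.64 in insulin-treated total RNA, 0.98 and 0.82 in M4 and RB, and 0.89 and 1.21 in quiescent axes. Polysomal sample 2 without insulin and polysomal insulin sample 1 were the highest, and insulin-treated total RNA was the lowest. The ratio averaged 1.05 ± 0.38 in germinated samples (SD, n = 9) and 1.05 in quiescent samples (n = 2). The difference of −0.01 had a two-sided exact permutation p of 1, where the smallest p that these 2 group sizes allow is 0.0182. The ratio of 3′ to middle differed by −0.07 (exact permutation p = 0.909) and that of middle to 5′ by 0.06 (exact permutation p = 0.6), and all 3 adjusted p were 1.

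The same pair of polysomal samples had the highest ratios in other controls. The ubiquitin ratio of 3′ to 5′ was 1.37 in polysomal insulin sample 1 and 1.33 in polysomal sample 2 without insulin, against 0.27 to 0.61 in the other 9 samples. The EF1a ratio was 2.43 and 2.73 in that pair and 0.55 to 1.64 elsewhere. These samples also resembled each other (r = 0.9956 across probe sets) more than any sample of their own group. The other polysomal samples fell into pairs across the insulin groups too, sample 1 without insulin with insulin sample 2 (r = 0.9967) and sample 3 without insulin with insulin sample 3 (r = 0.9944). With both left out, an alternative chosen after seeing the data, the germinated mean of the GAPDH ratio was 0.19 units below the quiescent mean (difference −0.19, exact permutation adjusted p = 0.292), and the middle Zm-gapdh probe sets still differed from quiescent axes by 5.26 and 5.85 in polysomal RNA without insulin. Why these samples have higher ratios was not tested.

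Among the 9 germinated samples, correlations between GAPDH probe sets had both signs. The middle pair of the Zm-gapdh series correlated at r = 0.56, and Gapdh_M_f_at with Gapdh_5_f_at at r = 0.80, while Gapdh_3_s_at correlated with Gapdh_5_f_at at r = −0.49 and with gapdh-M_s_at at r = −0.65. Across the series, gapdh-M_s_at correlated with Gapdh_5_f_at at r = 0.695, more than with its partner gapdh-M_at. The gpc1 probe sets correlated with Gapdh_3_s_at at 0.91 and, for the one with the ending s, at 0.78, but at −0.06 and 0.49 with Gapdh_M_f_at and at −0.49 and 0.04 with Gapdh_5_f_at, in the same order. For the gpc2 probe set the values were 0.76 with Gapdh_M_f_at, 0.55 with Gapdh_3_s_at and 0.23 with Gapdh_5_f_at. With gapdh-M_at and gapdh-M_s_at it correlated at 0.35 and 0.05. The gpc4 probe set correlated at 0.96 with gapdh-M_at and at 0.67 with gapdh-M_s_at. The gpc3 probe set with the largest difference correlated at 0.91 with gapdh-M_at and at 0.35 with gapdh-M_s_at. The other 2 gpc3 probe sets had negative correlations, −0.63 and −0.53 with gapdh-M_at and −0.61 and −0.49 with gapdh-M_s_at. These are descriptions over 9 samples that share scaling and, within a group, treatment, and RB and the pair with high 3′ to 5′ ratios are among them.

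Likeness of pattern was ranked by Pearson correlation over the 11 samples among 15544 probe sets above background in at least 1 sample. Since the samples form a quiescent and a germinated cluster, this measure mostly ranks probe sets by how cleanly they separate the stages. The pattern most like gapdh-M_s_at was that of a probe set with no gene name here (r = 0.999), followed by the gpc4 probe set (r = 0.9985), and within the germinated samples these correlated with it at 0.82 and 0.67. The pattern most like gapdh-M_at was that of another unnamed probe set (r = 0.9972), followed by a probe set paired with the histone H1 gene his1 (r = 0.9967), and these correlated with it at 0.87 and 0.85 within the germinated samples. The gpc4 probe set ranked at place 13 for gapdh-M_at (r = 0.9955). The 2 least alike probe sets, unnamed here, reached r = −0.9966 and −0.9962 for gapdh-M_s_at, and r = −0.9952 and −0.9949 for gapdh-M_at.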

How the data were processed

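The authors deposited 1 table of 17734 probe sets on 14 arrays, whose values (2.60 to 14.38) were taken as log2 intensities from their range, since no file header states the scale. The sources used here do not state the background correction or normalization, and the submitters' processing notes name limma without a version. Repeat arrays were averaged per biological sample. A single limma model (version 3.58.1, R 4.3.3) covered the 5 groups and 17582 probe sets, leaving out 152 other controls, with 6 residual and 3.21 prior degrees of freedom. The lone insulin-treated total RNA sample was given the spread of the other groups. The 8 contrasts were adjusted by Benjamini-Hochberg, and 3 signal ratios were tested by exact permutation. No fold is given for a probe set below background in every sample of a group. Fit and exact test were tested on simulated data. GEO's platform annotation names 1452 probe sets by 1 gene, 1 by several, and does not list 16281. Of the 1453 it lists, 1377 matched RefSeq (Zm-B73-REFERENCE-NAM-5.0), used for names only. The members and lists were chosen with earlier results of these data known. The text names all 7 members, listed pathway genes, and the 2 most and 2 least alike probe sets of members whose group means span over 1 unit. The number of arrays limits the precision. Alternatives were other scalings, filters, uses of repeat arrays, priors and left-out samples.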

Additional observations from a re-analysis of the deposited data

How the results depend on the processing

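The calls of gapdh-M_s_at and gapdh-M_at against quiescent axes held under all alternatives, and 0 of 7 GAPDH probe sets were called in all alternatives of the 5 comparisons among germinated axes. The count in 24 h against quiescent total RNA moved to 7 with arrays centred on their medians and to 4 with a trend and robust prior. In polysomal RNA without insulin against quiescent it moved to 7 with median centring, and over all germinated groups to 7 with median centring and 5 with the trend and robust prior. The probe sets added were all called lower. Median centring moved the median difference over all probe sets to −0.45, −0.40 and −0.42 in these 3 comparisons, in the same order. The share of all probe sets called under each alternative is not given here, so these counts say little about GAPDH itself. Leaving out each sample in turn gave counts of 2 to 4 in each of these 3 comparisons (4 without RB at 24 h). Of 735 member-level alternatives, 29 made a call and 6 ended one, all of gapdh-3_at, 4 by the adjusted p and 2 by a required 2-fold difference. The polysomal numbers did not pair samples throughout. Deviations of same-numbered samples correlated at −0.627 and −0.444 for numbers 1 and 2, and at 0.599 for number 3. Numbers 1 and 2 correlated best across numbers, sample 1 without insulin with insulin sample 2 (0.771) and sample 2 with insulin sample 1 (0.701), a hint from the data that no label bears out and that the insulin intervals do not use. A replicate block of same-numbered samples left the counts at 3 against quiescent axes, as in the fit without it, and at 0 among germinated groups.

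Signs changed only for uncalled differences. Insulin in polysomal RNA gave −0.004 for gapdh-3_at with median centring and −0.065 for gapdh-M_at without the polysomal pair of high 3′ to 5′ ratio, an alternative chosen after seeing the data. In total RNA insulin gave −0.106 for gapdh-3_at with second arrays, and for Gapdh_3_s_at −0.047 (quantile), −0.009 (median centring) and −0.106 (first arrays). Polysomal against total RNA without insulin gave −0.033 (quantile), −0.025 (second arrays) and −0.001 (random block over 14 arrays) for gapdh-M_s_at, −0.013 (quantile) for Gapdh_M_f_at and 0.06 for Gapdh_5_f_at without that pair. With insulin it gave −0.041 (quantile) and −0.048 (second arrays) for gapdh-M_s_at. The ratio difference was −0.033 for middle to 5′ in total RNA only and 0.022 for 3′ to 5′ after quantile normalization. Leaving out each sample in turn gave, for insulin in polysomal RNA, −0.096 to 0.094 for gapdh-3_at, −0.115 to 0.254 for gapdh-M_at, −0.072 to 0.178 for gapdh-M_s_at, −0.088 to 0.196 for Gapdh_3_s_at and −0.04 to 0.29 for Gapdh_5_f_at. For insulin in total RNA it gave −0.069 to 0.521 for gapdh-M_at, −0.005 to 0.12 for gapdh-M_s_at and −0.099 to 0.125 for Gapdh_3_s_at. For polysomal against total RNA without insulin it gave −0.081 to 0.145 for gapdh-M_s_at, −0.269 to 0.06 for Gapdh_5_f_at and −0.058 to 0.177 for Gapdh_M_f_at, and with insulin −0.071 to 0.125 for gapdh-M_s_at. The ratio differences ran from −0.168 to 0.153 for 3′ to 5′ and from −0.193 to 0.056 for 3′ to middle. The cause of these changes was not tested.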
